A study of Mus musculus with 24 samples.

Results

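The 9 genes described here were listed together as monocyte and border macrophage genes: Lyz2, Ccr2, Plac8, Ly6c2, Cd5l, Marco, Mrc1, Cd163 and F13a1. Not all are markers of those cells, since Cd5l marks macrophages of liver and spleen. Marco, like Cd5l, is known from macrophages that clear particles and lipids. Each symbol was matched to 1 row of the deposited count table by its Ensembl identifier, so the 9 rows are 9 of 55421. They were chosen by name, by a rule that uses no measured value, though with earlier results of these data known. The libraries come from the left brain hemisphere of C57BL/6J mice aged 3 months, wild type or Nox2 knockout, with 6 animals in each of 4 groups. The injections went into the abdomen once a day on 4 days, in a volume of 100 µl. They held either phosphate-buffered saline (PBS) or, at 1 µg per g body weight per day, lipopolysaccharide (LPS), a cell wall component of gram-negative bacteria, here from Salmonella abortus equi. All groups shared strain, age and injection schedule. The allele of the knockout and the sex of the animals are not given in the labels used here.

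Monocytes are made in the bone marrow and circulate in the blood. The classical type carries the chemokine receptor Ccr2 and the surface protein Ly6c2, enters inflamed tissue and can become a macrophage there. The brain has macrophages of its own: microglia within the tissue, and border macrophages in the meninges, around vessels and in the choroid plexus, which carry scavenger and endocytic receptors such as Mrc1 and Cd163. A whole hemisphere mixes all of these with any blood left in its vessels.

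Libraries held 2340184 to 5256169 counts of 3′ tags. Levels are given in CPM, the usual unit in which a gene's counts are scaled to a common library total, with TMM factors that adjust totals for differences in composition. Cybb, the gene targeted in the knockout, stood at 63.1 to 77.3 CPM in the libraries labelled knockout and at 0.853 to 34.0 CPM in wild type. Its level therefore goes against the label knockout, although tags from the 3′ end do not check an allele whose disrupted part is not given. Genotype directions below therefore follow the sample labels alone, and the word knockout refers to a label. In the wild type LPS group, replicates 1 and 2 lay below replicates 3 to 6 for Lyz2, Plac8, Marco and Cybb, and the results that rest on them are given with and without them. Of the 9 genes, 8 passed the filter on low counts and entered the edgeR fit over 14380 genes. Ccr2, Plac8, Cd5l and Marco reached the filter's level of 2.60 CPM in LPS libraries and in 0 of 12 PBS libraries, so their passing already depended on the group where they are high, and a count over the 8 is a description only. Ly6c2 did not pass and is given by its counts.

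**Figure D1:**
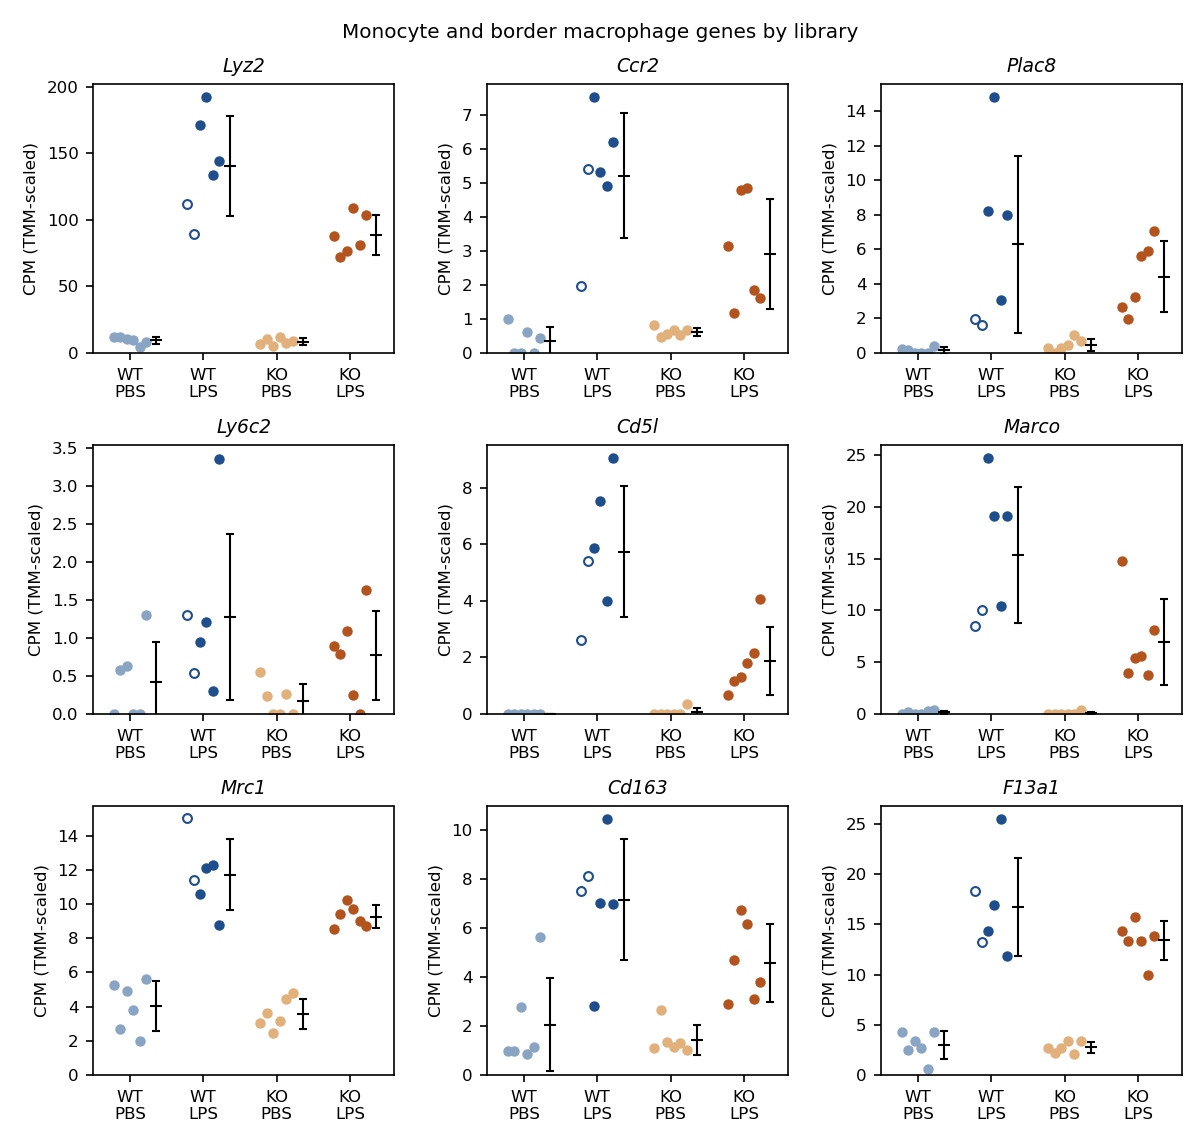
CPM of the 9 genes in each of the 24 libraries, on a linear axis that starts at 0, by genotype (WT, wild type; KO, the libraries labelled knockout) and injection. Points are libraries, open circles are wild type LPS replicates 1 and 2, and the black marks give the mean ± SD (n = 6, bars end at 0 where the SD exceeds the mean). Lyz2 reached 89.4 to 192 CPM in wild type and 71.8 to 109 CPM in knockout after LPS, against at most 11.9 CPM in every PBS library.

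LPS raised 8 of the 8 tested genes in wild type and 8 of 8 in knockout (edgeR quasi-likelihood test, adjusted p under 0.05). Over all genes tested, 10.9% were called higher and 7.12% lower in wild type, and 7.05% higher and 3.82% lower in knockout. By mean CPM, Mrc1, a receptor of border macrophages, was 2.90-fold higher in wild type and 2.59-fold in knockout, whereas Marco and Cd5l, which clear particles and lipids, came up from 0 to 3 counts over a whole PBS group. Nothing in a bulk hemisphere tells more cells of a type apart from more RNA per cell, and that holds for every level below. Other cell types moved at the same time. The summed level of 17 neutrophil markers went from 14.2 to 25.5 CPM after PBS to 139 to 765 CPM after LPS in wild type, and from 13.2 to 48.1 CPM to 105 to 420 CPM in knockout. Sparc, a matrix protein that astrocytes and endothelium also make, held most of the summed level of 14 homeostatic microglia genes, at 777 CPM after PBS and 1584 CPM after LPS in wild type. That sum went from 957 to 1100 CPM to 1730 to 2270 CPM in wild type and from 959 to 1180 CPM to 1670 to 1840 CPM in knockout. That of 5 erythrocyte markers, the globin genes among them, was lower after LPS, going from 28.2 to 80.5 CPM to 0.982 to 18.4 CPM in wild type and from 35.9 to 363 CPM to 2.47 to 55.4 CPM in knockout. The part of these lists in the levels below was not tested.

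Lyz2 (ENSMUSG00000069516, chromosome 10, 117277331 to 117282321, minus strand, GRCm38) encodes lysozyme M, a bacteriolytic enzyme of monocytes, macrophages and neutrophils. Wild type libraries ranged from 4.84 through a median of 9.94 to 11.9 CPM after PBS and from 89.4 through 139 to 192 CPM after LPS. Knockout libraries ranged from 5.19 through 8.23 to 11.9 CPM and from 71.8 through 84.6 to 109 CPM. Every LPS library thus lay above every PBS library in either genotype. In wild type the log2 fold change was 3.86 ± 0.16 (SE, edgeR adjusted p = 4.17e-23), and in knockout it was 3.35 ± 0.17 (adjusted p = 1.16e-19).

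Lyz2 has a neighbour on the same strand, Lyz1 (chromosome 10, 117287797 to 117292868), the lysozyme of Paneth cells. The last 300 bases of their transcripts are 93.8% identical, with an identical run of up to 104 bases, so tags can be shared and the handling of such reads is not given in the sources used here. Counts of Lyz1 summed to 2 after PBS and 14 after LPS in wild type, and to 1 and 16 in knockout. Those of Lyz2 summed to 239 and 3184, and to 197 and 1994, so Lyz1 held few tags beside Lyz2. The promoter windows of the pair are shown because these neighbours were counted so unequally. Each runs from 250 bases before to 50 bases after the RefSeq start, 5′ to 3′ on the gene's strand (GRCm38.p6), and they are 82.5% identical over an alignment with gaps. Capitals mark a match to any of the 4 short motifs described with the promoters of Marco, Cd5l and Mrc1.
Lyz2, chr10:117282223-117282522, minus strand: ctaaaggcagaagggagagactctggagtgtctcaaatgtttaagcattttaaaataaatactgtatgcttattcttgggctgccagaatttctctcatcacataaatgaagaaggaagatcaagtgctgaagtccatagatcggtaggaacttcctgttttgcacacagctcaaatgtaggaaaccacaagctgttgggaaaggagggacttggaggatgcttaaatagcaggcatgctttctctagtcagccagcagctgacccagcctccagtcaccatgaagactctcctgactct
Lyz1, chr10:117292819-117293118, minus strand: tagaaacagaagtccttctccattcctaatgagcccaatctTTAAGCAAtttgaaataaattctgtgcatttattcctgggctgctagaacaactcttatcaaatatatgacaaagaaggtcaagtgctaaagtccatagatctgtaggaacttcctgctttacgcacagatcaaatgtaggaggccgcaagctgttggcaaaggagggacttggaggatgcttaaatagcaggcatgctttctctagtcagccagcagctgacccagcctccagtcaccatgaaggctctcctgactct
In the Lyz2 window none of the 4 motifs was found, and in the Lyz1 window there was 1 match, to the C/EBP motif on the opposite strand.

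Ccr2 (ENSMUSG00000049103, chromosome 9, 124101950 to 124113557, plus strand) encodes the receptor for the chemokine Ccl2 and related ligands, through which monocytes leave the marrow. In counts, wild type libraries held 0 to 4 after PBS and 6 to 32 after LPS, with medians of 0.5 and 21. Knockout libraries held 2 to 3 after PBS and 3 to 22 after LPS, with medians of 2 and 10. The groups did not overlap in CPM in either genotype. The rise was 3.90 ± 0.45 on the log2 scale in wild type (edgeR adjusted p = 2.6e-09) and 2.26 ± 0.45 in knockout (adjusted p = 0.000228). After LPS, replicate 1 of the wild type group was the lowest of its group, at 1.96 CPM, against 4.92 to 7.53 CPM in the other 5 libraries.

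Plac8 (ENSMUSG00000029322, chromosome 5, 100553725 to 100572245, minus strand) encodes a small cysteine-rich protein of monocytes, neutrophils and other leukocytes. In wild type it summed to 3 counts after PBS and 149 after LPS. Their ratio, scaled for depth, was 54.7, with an exact 95% interval of 18.4 to 268 that covers counting error only. Knockout libraries held 0 to 4 counts after PBS and 5 to 26 after LPS, and the log2 fold change was 3.23 ± 0.57 (edgeR adjusted p = 3.28e-05). Wild type LPS libraries varied widely, from 1.63 through a median of 5.54 to 14.8 CPM, a 9.11-fold range. The lowest values, 1.96 and 1.63 CPM, were those of replicates 1 and 2, although either still lay above all 6 PBS libraries. Without these libraries the fitted wild type change was 5.81 ± 0.54 in place of 5.40 ± 0.64, and its size depends on the prior count because so few PBS tags were seen.

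Ly6c2 (ENSMUSG00000022584, chromosome 15, 75108158 to 75111970, minus strand), the surface marker of classical monocytes, was barely detected. Its counts summed to 9 after PBS and 29 after LPS in wild type, and to 4 and 18 in knockout. The groups overlapped in each genotype. An exact two-sided permutation test over every split of the 12 libraries gave p = 0.0866 for wild type, at 1.28 ± 1.09 against 0.419 ± 0.524 CPM (SD, n = 6), and p = 0.0455 for knockout, at 0.776 ± 0.585 against 0.175 ± 0.220 CPM. Adjusted over the 4 comparisons of groups, both became 0.173. Fitted without the filter, edgeR gave 1.70 ± 0.58 in wild type (adjusted p = 0.0432) and 1.98 ± 0.73 in knockout (adjusted p = 0.104). That fit also gave Lyz2 in knockout an edgeR adjusted p of 2.55e-248, against 1.16e-19 in the filtered fit. The p-values without the filter are therefore not comparable with those of the filtered fit. Replicate 6 of the wild type LPS group alone held 13 of the 29 Ly6c2 counts.

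The close relative Ly6c1 (chromosome 15, 75044018 to 75048830, minus strand) is strongly expressed by brain endothelium, and the last 300 bases of a transcript of each gene are up to 96% identical, with a shared run of up to 124 bases. Ly6c1 rose by 0.92 ± 0.07 in wild type (edgeR adjusted p = 7.65e-14) and by 1.397 ± 0.08 in knockout (adjusted p = 9.1e-19). Under PBS it was lower in knockout, at 26.4 ± 3.30 against 34.9 ± 2.58 CPM (SD, n = 6), a log2 difference of -0.41 ± 0.08 (adjusted p = 0.0141). Ly6c1 summed to 860 counts in wild type after PBS, against 9 of Ly6c2, and whether tags of one were counted for the other was not tested.

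Marco and Cd5l, both known from macrophages that clear particles and lipids, were close to absent after PBS. Marco (ENSMUSG00000026390, chromosome 1, 120474538 to 120505024, minus strand) encodes a scavenger receptor for bacteria. It had 0 or 1 count in each of the 12 PBS libraries. After LPS it ranged from 8.51 through a median of 14.8 to 24.7 CPM in wild type and from 3.73 through 5.54 to 14.8 CPM in knockout. Totals of 355 against 3 counts in wild type gave a ratio of 130 (exact 95% interval 44.2 to 635), and 165 against 1 in knockout gave 167 (29.5 to 6630). Replicate 1 of the knockout LPS group was the highest of its group, and the other 5 libraries lay at 8.14 CPM or below.

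Cd5l (ENSMUSG00000015854, chromosome 3, 87357881 to 87371073, plus strand) encodes a secreted protein, also called AIM, that binds lipids and marks macrophages of liver and spleen. No count was found in the 6 wild type PBS libraries, and 1 in the 6 knockout PBS libraries. Wild type LPS libraries held 8 to 35 counts, or 2.62 through a median of 5.65 to 9.04 CPM. That is at least 48.4-fold higher when the PBS group is set to 3 counts, a floor chosen for a count of 0. Knockout LPS libraries held 3 to 15 counts, or 0.673 through 1.55 to 4.07 CPM, a ratio of 41.5 (exact 95% interval 7.04 to 1680). Other markers of liver macrophages went different ways. Clec4f had 1 count in all 24 libraries together. Timd4 had 2, 1, 2 and 1 counts in wild type PBS, wild type LPS, knockout PBS and knockout LPS. Vsig4, a complement receptor of resident macrophages, had 31 counts after LPS against 1 after PBS in wild type, a ratio of 34.1 (5.69 to 1390), and 16 against 0 in knockout, at least 5.39-fold higher when set to 3 counts likewise.

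Mrc1 (ENSMUSG00000026712, chromosome 2, 14229392 to 14332057, plus strand) encodes the mannose receptor CD206, a defining marker of border macrophages. Unlike Marco and Cd5l it was present in every PBS library, at 1.99 to 5.62 CPM in wild type and 2.46 to 4.81 CPM in knockout. LPS libraries lay at 8.79 through a median of 11.8 to 15.1 CPM in wild type and 8.52 through 9.21 to 10.2 CPM in knockout, above all PBS libraries. The log2 fold changes were 1.55 ± 0.19 (edgeR adjusted p = 6.71e-09) and 1.38 ± 0.20 (adjusted p = 7.74e-07).

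The promoter windows of Marco, Cd5l and Mrc1 are printed because these genes moved in the same direction from very different PBS levels. The search for 4 motifs covered both strands. They were GAGGAA, a core of sites of the myeloid factor PU.1, TTGCNNAA for C/EBP factors, GGGA and TTCC with any 2 bases between them for NF-kB and TTCNNNGAA for STAT factors. The capitals mark GAGGAA or its reverse complement, the only motif of the 4 found in the windows of the 9 genes.
Marco, chr1:120504975-120505274, minus strand: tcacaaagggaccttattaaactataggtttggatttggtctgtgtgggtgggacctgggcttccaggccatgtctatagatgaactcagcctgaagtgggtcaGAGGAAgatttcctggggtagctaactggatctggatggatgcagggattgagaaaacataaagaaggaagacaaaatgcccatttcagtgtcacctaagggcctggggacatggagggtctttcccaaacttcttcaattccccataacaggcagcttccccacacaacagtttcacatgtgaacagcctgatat
Cd5l, chr3:87357631-87357930, plus strand: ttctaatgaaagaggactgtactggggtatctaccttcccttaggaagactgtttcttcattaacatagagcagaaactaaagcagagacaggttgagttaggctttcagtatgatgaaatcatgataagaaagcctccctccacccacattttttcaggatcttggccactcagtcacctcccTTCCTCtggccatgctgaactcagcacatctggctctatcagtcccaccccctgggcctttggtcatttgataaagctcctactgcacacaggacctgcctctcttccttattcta
Mrc1, chr2:14229164-14229463, plus strand: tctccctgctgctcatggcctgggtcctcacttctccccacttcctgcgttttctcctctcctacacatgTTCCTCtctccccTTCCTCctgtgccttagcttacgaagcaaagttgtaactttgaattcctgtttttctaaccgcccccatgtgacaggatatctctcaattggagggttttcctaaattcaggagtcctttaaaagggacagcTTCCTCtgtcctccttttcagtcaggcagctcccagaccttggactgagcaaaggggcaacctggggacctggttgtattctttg
GAGGAA was found in the windows of 6 of the 9 genes, those of Plac8, Cd5l, Marco, Mrc1, F13a1 and Ly6c2, and in 28.3% of all 32851 promoter windows of this length. The Mrc1 window held 3 matches and those of Marco and Cd5l 1 each. The other motifs occur in 10.8% (C/EBP), 1.47% (NF-kB) and 8.30% (STAT) of all windows. These are matches of letters in a short window, with nothing measured about binding.

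Cd163 (ENSMUSG00000008845, chromosome 6, 124304656 to 124330527, plus strand) encodes the receptor that takes up complexes of haemoglobin and haptoglobin. Wild type libraries ranged from 0.842 through a median of 1.07 to 5.62 CPM after PBS and from 2.82 through 7.28 to 10.4 CPM after LPS. Here the groups overlapped, because PBS replicate 6 lay above LPS replicate 3. Knockout libraries ranged from 1.03 through 1.21 to 2.65 CPM and from 2.92 through 4.25 to 6.76 CPM, with no overlap. The rises were 1.96 ± 0.32 on the log2 scale (edgeR adjusted p = 7.78e-06) and 1.65 ± 0.37 (adjusted p = 0.00108).

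Other genes of haemoglobin and haem handling moved in part with Cd163. Of 8 tested, 6 were called higher and 0 lower in wild type, and 3 higher and 0 lower in knockout, with medians of 0.61 and 0.38 on the log2 scale, against medians of -0.0089 and -0.0015 over all genes. Haptoglobin, Hp, the plasma protein that binds free haemoglobin, rose by 5.46 ± 0.54 in wild type and 3.55 ± 0.54 in knockout. Hp summed to only 4 and 8 counts after PBS and passed the filter through LPS libraries, so these counts of calls are descriptions. Hmox1, which breaks down haem, rose by 1.82 ± 0.25 and 1.62 ± 0.27, and Fth1, the heavy chain of the iron store ferritin, by 0.56 ± 0.06 and 0.47 ± 0.06. Transferrin, Trf, rose by 0.40 ± 0.06 in wild type (edgeR adjusted p = 1.22e-06) and stood at 0.15 ± 0.06 in knockout (adjusted p = 0.128). After LPS it was lower in knockout than in wild type, at -0.31 ± 0.06 (edgeR adjusted p = 0.00243). The difference between its LPS changes in the 2 genotypes was not called, at -0.25 ± 0.08 (edgeR adjusted p = 0.3).

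F13a1 (ENSMUSG00000039109, chromosome 13, 36867178 to 37050244, minus strand) encodes the A subunit of clotting factor XIII, which monocytes, border macrophages and platelets carry. It ranged from 0.569 through a median of 3.07 to 4.33 CPM in wild type PBS libraries and from 11.9 through 15.7 to 25.5 CPM after LPS. In knockout it ranged from 2.08 through 2.73 to 3.44 CPM and from 9.93 through 13.6 to 15.7 CPM. Again no PBS library reached the lowest LPS library of its genotype, and the log2 fold changes were 2.50 ± 0.21 (edgeR adjusted p = 5.69e-13) and 2.29 ± 0.22 (adjusted p = 6.59e-11). Of the 8 tested genes, 7 had groups without overlap in wild type and 8 in knockout, all of them higher after LPS. Over all tested genes, 5.88% were higher and 2.06% lower without overlap in wild type, and 4.24% and 1.72% in knockout.

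**Figure D2:**
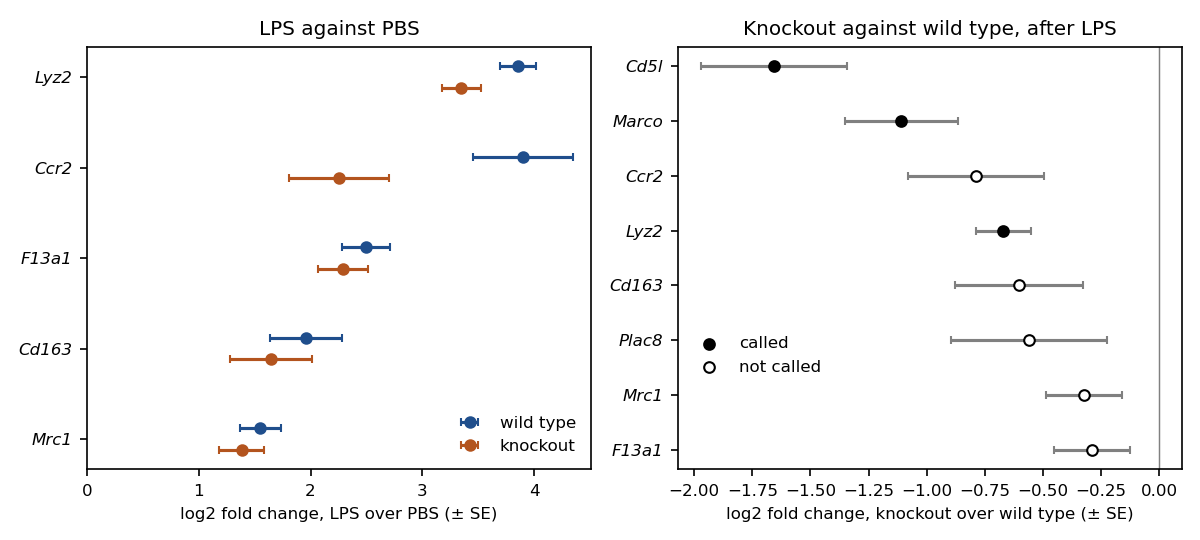
Left, fitted log2 fold change after LPS (± SE) in wild type and in knockout for the 5 tested genes with more than 3 counts over each PBS group (Plac8, Cd5l and Marco are given in the text as ratios). Right, log2 fold change of knockout over wild type after LPS (± SE) for the 8 tested genes, filled where the edgeR adjusted p was under 0.05. All 8 lie below 0, and Cd5l, Marco and Lyz2 are filled.

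Further monocyte genes went the same way as the 9. Of 23 tested, 19 were called higher and 1 lower in wild type, and 18 and 1 in knockout, with medians of 1.76 and 1.59. This list, that of haemoglobin and haem handling and those that follow were chosen with earlier results of these data known. In them too, genes with few PBS counts passed the filter through the LPS libraries, so the counts of calls are descriptions. Ms4a6c, a membrane protein of the MS4A family, rose by 3.98 ± 0.21 in wild type and 3.21 ± 0.22 in knockout. Itgam, the integrin CD11b, rose by 2.62 ± 0.15 and 2.47 ± 0.17, and the matrix protein fibronectin, Fn1, by 1.60 ± 0.10 and 1.68 ± 0.10. Clec4a3, a lectin receptor, rose by 3.67 ± 0.27 and 2.74 ± 0.28. The member that fell was Gda, guanine deaminase, by 0.17 ± 0.05 and 0.23 ± 0.05, a gene that summed to 8053 counts in wild type after PBS.

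The next list held border macrophage genes beyond Mrc1, Cd163 and F13a1. Of 15 tested, 10 were called higher and 1 lower in wild type, and 11 higher and 0 lower in knockout, with medians of 0.94 and 1.259. The scavenger receptor Stab1 rose by 1.98 ± 0.13 and 1.62 ± 0.14, Ms4a6b by 2.00 ± 0.17 and 2.14 ± 0.19, and the endocytic adaptor Dab2 by 0.94 ± 0.12 and 0.82 ± 0.13. Ccl8, a chemokine, was called higher in either genotype, from a sum of 1 count after PBS in wild type to 59 after LPS and from 8 to 53 in knockout. The gene called lower was Ednrb, an endothelin receptor that astrocytes also express, at -0.22 ± 0.08 in wild type. Clec10a, a lectin of border macrophages and dendritic cells, stood at -0.04 ± 0.31 (edgeR adjusted p = 0.955). Lyve1, a hyaluronan receptor of perivascular macrophages and lymphatic vessels, was under the filter, with 34 counts after PBS and 16 after LPS in wild type and 15 and 25 in knockout.

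Genes of monocyte recruitment rose along with the receptor Ccr2. Of 14 tested, 12 were called higher and 0 lower in either genotype, with medians of 1.28 and 1.13. Ccl12, a Ccr2 ligand of the mouse, rose by 3.39 ± 0.41 in wild type and 3.13 ± 0.40 in knockout, while Ccl2 was under the filter at 28 against 5 counts and 46 against 3. Among adhesion molecules of the vessel wall, Icam1 rose by 3.74 ± 0.32 and 4.28 ± 0.37 and Vcam1 by 1.28 ± 0.10 and 1.07 ± 0.10. P-selectin, Selp, went from 0 counts to 74 in wild type, at least 27.2-fold higher, and from 0 to 50 in knockout, at least 16.9-fold higher. Csf1r, the receptor for the growth factor Csf1 on monocytes and all brain macrophages, rose by 1.27 ± 0.09 and 1.19 ± 0.10, and Csf2rb by 3.58 ± 0.35 and 3.31 ± 0.39.

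Markers of other cells in a hemisphere were set beside these lists. Homeostatic microglia genes had 9 of 14 called higher and 2 lower in wild type and 8 and 0 in knockout, with medians of 0.75 and 0.64. Sparc rose by 1.03 ± 0.06 in wild type, Cx3cr1 by 1.25 ± 0.09, Fcrls by 1.258 ± 0.11 and Trem2 by 1.33 ± 0.12. The genes that fell in wild type were Siglech, a lectin of microglia, at -1.07 ± 0.19 (edgeR adjusted p = 1.88e-05), and the fructose transporter Slc2a5, at -0.91 ± 0.23 (adjusted p = 0.00367). P2ry12, the purine receptor that marks resting microglia, stood at -0.28 ± 0.15 (edgeR adjusted p = 0.19). Of 17 neutrophil genes, 10 passed the filter, and 10 of 10 were called higher in either genotype, with medians of 4.40 and 2.87. That count is a description, since those with few PBS counts passed through the LPS libraries. The calprotectin subunits S100a8 and S100a9 rose by 4.73 ± 0.39 and 4.30 ± 0.37 in wild type, Wfdc21 by 5.04 ± 0.50 and the collagenase Mmp8 by 4.50 ± 0.47, whereas Ly6g, a defining neutrophil marker, held 1, 6, 2 and 1 counts in wild type PBS, wild type LPS, knockout PBS and knockout LPS. Endothelial genes had 12 of 12 called higher in wild type and 10 in knockout, with medians of 1.08 and 0.78, led by Ly6a at 1.78 ± 0.09, Cldn5 at 2.17 ± 0.13, Pecam1 at 1.74 ± 0.11 and Esam at 1.35 ± 0.09. Fibroblast genes of the meninges and vessels had 2 of 9 higher and 1 lower in wild type and 4 and 1 in knockout, and choroid plexus genes 1 of 9 higher and 1 lower in wild type and 0 and 0 in knockout. Decorin, Dcn, led the fibroblast genes at 1.29 ± 0.10 in wild type and Foxc1 stood at 0.74 ± 0.12, while Igfbp2 fell by 0.41 ± 0.09 and Lum stood at 0.66 ± 0.25 (edgeR adjusted p = 0.0609). Of the choroid plexus genes, Clic6 rose by 0.48 ± 0.13 and Kl fell by 0.88 ± 0.23, while Ttr and Prlr stood at -0.18 ± 0.07 and -0.23 ± 0.14 (edgeR adjusted p = 0.0672 and 0.265). Of the erythrocyte genes, 4 of 4 tested were lower in either genotype, with Hbb-bs at -3.46 ± 0.69 in wild type and -3.34 ± 0.51 in knockout. Hbb-bt, Hba-a2 and Hba-a1, the other globin genes tested, stood at -2.85 ± 0.61, -3.16 ± 0.78 and -3.95 ± 0.98 in wild type. Among lymphocyte genes, 1 of 2 tested was called, Gzma, a protease of cytotoxic cells, which summed to 0 counts after PBS and 96 after LPS in wild type and to 2 and 70 in knockout. The other, Cd4, stood at 0.04 ± 0.29 in wild type (edgeR adjusted p = 0.949).

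**Figure D3:**
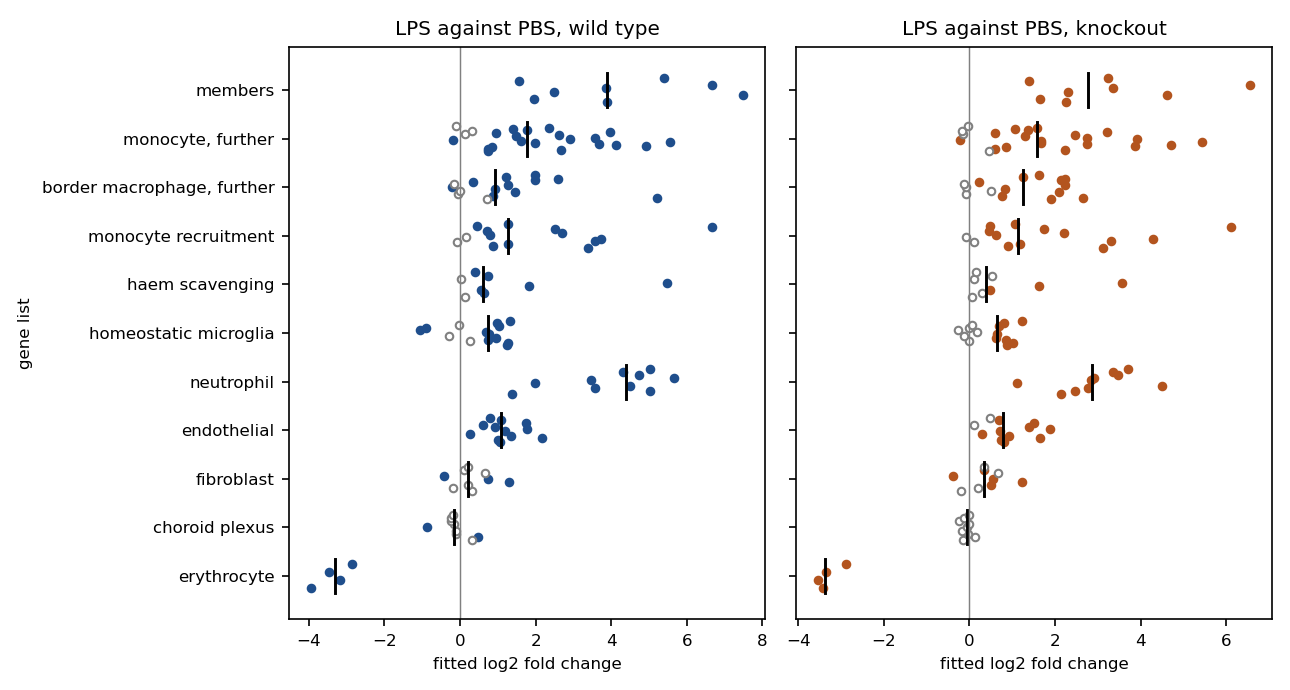
Fitted log2 fold change after LPS for each tested gene of 11 lists in wild type (left) and knockout (right), on a linear axis of log2 values. Filled points passed an edgeR adjusted p under 0.05, open points did not, and the black bar is the list's median. The fitted values of genes with 0 to 3 counts after PBS, such as Cd5l, Marco and Selp, depend on the prior count. The 8 tested genes of the 9 lie above 0 on both sides, as do the 10 neutrophil genes, whereas the 4 erythrocyte genes lie below 0.

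Between genotypes after PBS, none of the 9 genes was called (0 of 8 tested, edgeR, with 0 at an unadjusted p under 0.05, and 0 by DESeq2 and by limma-voom). Over all genes, 0.0417% were called higher and 0.0904% lower in knockout. Differences were small where tags were plentiful, at -0.16 ± 0.25 for Lyz2, -0.15 ± 0.23 for Mrc1 and -0.08 ± 0.30 for F13a1. For Cd163 the value was -0.29 ± 0.44 and for Ccr2 0.85 ± 0.70, on 43 and 8 counts in wild type. Plac8 summed to 3 counts in wild type and 10 in knockout, 3.6 times as many after scaling (95% interval 0.928 to 20.4 from counting error, edgeR adjusted p = 0.729). Marco and Cd5l had at most 3 counts in either genotype, too few to show a difference.

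After LPS, Cd5l, Marco and Lyz2 were lower in knockout than in wild type. They were 3 of 8 tested genes, where 0.264% of all genes were called higher and 0.786% lower (5 of the 8 had an unadjusted p under 0.05, as did 1639 of the 14380 genes). Cd5l reached the filter's level in 5 wild type LPS libraries and 1 knockout LPS library. Its passing thus depended on the group where it is high, and the count of 3 is a description only. Cd5l stood at 1.87 ± 1.20 against 5.75 ± 2.32 CPM (SD, n = 6), a log2 difference of -1.66 ± 0.32 (edgeR adjusted p = 0.00288), with 5 of 6 knockout libraries below the lowest wild type library. Marco stood at 6.95 ± 4.16 against 15.3 ± 6.57 CPM, at -1.11 ± 0.24 (adjusted p = 0.0106), again with 5 of 6 libraries below the lowest of wild type. Lyz2 stood at 88.3 ± 14.9 against 140 ± 37.7 CPM, at -0.67 ± 0.12 (adjusted p = 0.000886), with 4 of 6 below. The groups overlapped in each of these genes, and 0 of the 9 had separate groups, where 0.257% of tested genes were higher and 0.389% lower without overlap. After PBS the groups of 0 of the 9 were separate, against 0.229% higher and 0.188% lower.

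The other members were not called after LPS. Ccr2 stood at -0.79 ± 0.29 (edgeR adjusted p = 0.226), Cd163 at -0.60 ± 0.27 (adjusted p = 0.376) and Plac8 at -0.56 ± 0.34 (adjusted p = 0.555). Mrc1 and F13a1, with the smallest SE of the tested members not called, stood at -0.32 ± 0.16 (adjusted p = 0.444) and -0.29 ± 0.16 (adjusted p = 0.522). All 6 knockout libraries lay below the wild type mean for Lyz2, Ccr2, Cd5l, Marco, Mrc1, Cd163 and F13a1, and 5 of 6 for Plac8 and Ly6c2. The share of all genes that do so was not counted, and these genes come from the same libraries, so this is a description. That a gene was not called does not show that its levels were alike. For Ly6c2 the exact permutation p was 0.392, at 0.776 against 1.28 CPM.

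The wild type LPS libraries varied, and replicates 1 and 2 lay at the low end for Lyz2, at 112 and 89.4 CPM against 133 to 192 CPM in replicates 3 to 6, and for Marco, at 8.51 and 10 against 10.4 to 24.7 CPM. Without both libraries the differences were -0.86 ± 0.10 for Lyz2 (edgeR adjusted p = 1.42e-07), -1.35 ± 0.24 for Marco (adjusted p = 0.000281) and -1.84 ± 0.33 for Cd5l (adjusted p = 0.000397). That is larger than with them, and Ccr2 and Plac8 then stood at -0.96 ± 0.30 (adjusted p = 0.0606) and -0.97 ± 0.30 (adjusted p = 0.0537). Replicates 1 and 2 hold the lowest values of their group for Lyz2, Plac8 and Marco. Leaving them out therefore enlarges the difference of those genes by itself, and the larger values are no separate support. The call of Marco ended without wild type LPS replicate 3, its highest library (-0.92, adjusted p = 0.0794), and that of Lyz2 ended with DESeq2 (-0.67, adjusted p = 0.0582). Other lists also held genes lower in knockout after LPS, 4 of 12 endothelial (Cldn5, Pecam1, Esam and Abcb1a), 2 of 14 homeostatic microglia (Cx3cr1 and Sall1) and 1 of 10 neutrophil (Mmp9). In the edgeR fit, 0 of the 23 further monocyte genes and 0 of the 15 further border macrophage genes were called there, with 9 and 3 at an unadjusted p under 0.05, a threshold that 1639 of all 14380 genes passed. The choroid plexus gene Ttr was higher in knockout, by 0.33. The part of these other cell types in the differences was not tested.

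The test of whether LPS acted differently in the genotypes is the interaction, the LPS change in knockout minus that in wild type. None of the 8 tested genes was called (0 by edgeR, DESeq2 and limma-voom, 1 at an unadjusted p under 0.05, as were 1407 of the 14380 genes), and over all genes 0% were called higher and 0.00695% lower. The gene at an unadjusted p under 0.05 was Ccr2, at -1.64 ± 0.77 (unadjusted p = 0.0385, edgeR adjusted p = 0.485). Lyz2 stood at -0.51 ± 0.28 (adjusted p = 0.57), Mrc1 at -0.17 ± 0.28 (adjusted p = 0.893), F13a1 at -0.21 ± 0.34 (adjusted p = 0.893) and Cd163 at -0.31 ± 0.53 (adjusted p = 0.895). For Plac8, Cd5l and Marco, with 0 to 3 wild type PBS counts, the fitted value depends on the prior count, and the adjusted p was 0.574, 0.659 and 0.98. A smaller response in knockout was therefore not shown for Cd5l, Marco or Lyz2.

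The 9 genes also differed in how they varied among animals of the same group. Among LPS libraries, Mrc1 had the coefficients of variation 0.178 in wild type and 0.0708 in knockout, and F13a1 0.294 and 0.143. Lyz2 had 0.268 and 0.169 and Cd163 0.347 and 0.350. Plac8 had 0.811 and 0.464, Cd5l 0.405 and 0.642, Marco 0.428 and 0.599 and Ccr2 0.353 and 0.558. Counting error is part of these values, and it is larger for genes with fewer tags.

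After each library's group mean was subtracted from its log2 CPM, the genes were compared in pairs across the 12 LPS libraries. They were put into 2 sets by role after the values were seen: Mrc1, Cd163 and F13a1 of border macrophages against Lyz2, Ccr2, Plac8, Cd5l and Marco. Pearson r within the border set was 0.435 to 0.589 (3 pairs) and within the other set 0.162 to 0.889 (10 pairs), with 0.889 for Lyz2 and Plac8 and 0.734 for Plac8 and Cd5l. Across the sets r ranged from -0.569 to 0.0512, with a median of -0.317 over 15 pairs. Without wild type LPS replicates 1 and 2, which were low for Plac8 and Lyz2 but not for Mrc1, the ranges were 0.49 to 0.709, -0.215 to 0.792 and -0.542 to 0.132, with a median of -0.155 across the sets, so that within and across then overlapped. Over all 24 libraries with group means removed they overlapped too, at 0.324 to 0.706 within the border set, 0.133 to 0.663 within the other set and -0.205 to 0.437 across, the last for Lyz2 and F13a1. Members measured in the same library share its depth and scaling, many of these counts are small, and the values are a description.

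**Figure D4:**
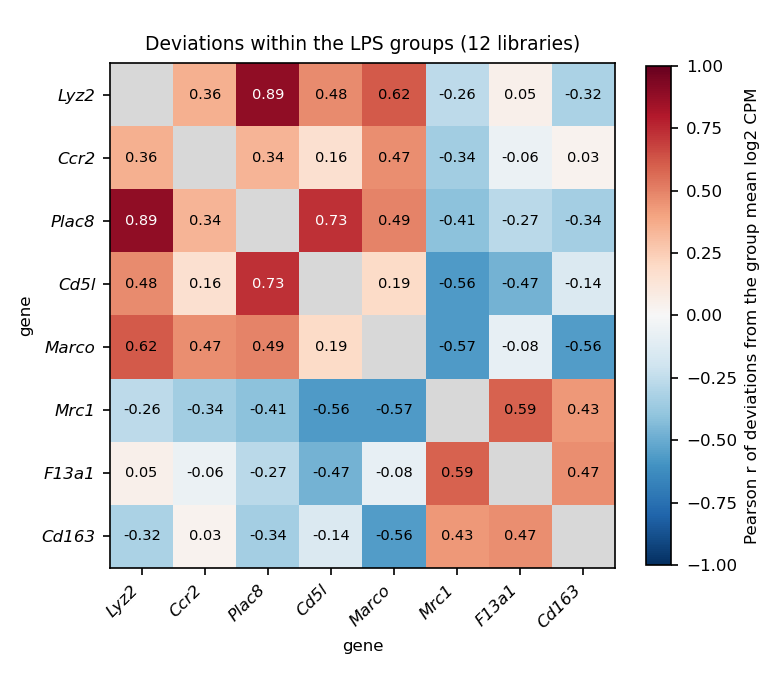
Pearson r between 8 genes of the deviations from the group mean log2 CPM across the 12 LPS libraries (6 wild type, 6 knockout). The colour runs from -1 (blue) to 1 (red), and the diagonal is grey. Lyz2 and Plac8 are the darkest red pair at 0.89, and Marco with Mrc1 and Cd163 are among the blue pairs.

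Over all 24 libraries the genes most like each member were mostly other LPS-responsive genes, since the difference between PBS and LPS dominates such an r. For Lyz2 these were C1qc, H2-K1 and C1qa (Pearson r = 0.986, 0.985 and 0.983 over 24 libraries), for Marco Gfap, Tagln2 and Tspo (0.984, 0.981 and 0.978) and for Cd5l Ctsd, Vwa1 and Esam (0.959, 0.958 and 0.956). For Plac8 they were Iqgap1, Itga6 and Grn (0.96, 0.933 and 0.933) and for Ccr2 Ms4a6c, Gusb and Pbxip1 (0.922, 0.921 and 0.919). Mrc1 and F13a1 stood in each other's list, at 0.954, with Ms4a6d and C3 for Mrc1 (0.949 and 0.933) and C3 and Lyz2 for F13a1 (0.957 and 0.945). With group means removed, r was 0.706 for Mrc1 and F13a1, 0.819 for Plac8 and Iqgap1, 0.751 for Marco and Gfap and 0.585 for Lyz2 and C1qc. The values were lowest for Cd163, with Plce1, Aldoc and Cxcl13 at 0.895, 0.872 and 0.863.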

How the data were processed

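Total RNA of left hemispheres from 24 mice, 6 in each of 4 groups, was sequenced as 3′ tags (QuantSeq, per the labels' protocols). The authors deposited raw counts per Ensembl gene. STAR 2.7.3a, featureCounts (Subread 2.0.0), bcl2fastq, DESeq2 1.26.0, R 3.6.1 and the build mm10 (GRCm38) are named per the submitters' processing notes. Not given in the sources used here are the annotation release, whether strand was used, and what became of duplicate or multiply matching reads. Groups come from the sample titles. Symbols were found for 55154 of 55421 identifiers, with positions from GENCODE M21 (GRCm38). Promoter windows come from RefSeq (GRCm38.p6), and all 9 members matched.

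All 24 libraries entered 1 edgeR 4.0.16 fit (R 4.3.3) with a mean per group, TMM scaling, filterByExpr (minimum count 10), and the quasi-likelihood F test on 20 residual degrees of freedom. For each of 5 comparisons p was adjusted over 14380 genes (Benjamini-Hochberg). Called means an adjusted p under 0.05. Log2 CPM used a prior count of 2. Where a group had 0 counts, a fold given as at least was formed with 3 counts set over the group. That floor was chosen, is no hard limit and does not cover the spread among animals. With 1 to 3 counts the ratio has an exact 95% interval. On simulated counts, the fit over 14380 genes recovered 88.1% of 67 genes changed by 1 on the log2 scale in the wild type LPS comparison. For the knockout LPS comparison it recovered 95.5%, between genotypes after PBS 98.5%, and between genotypes after LPS 85.1%. Of the calls made on these simulated counts, 2.91%, 7.65%, 2.84% and 4.55% were false in the same order. The changed genes were drawn from all genes tested, each simulated at its mean level over the 24 libraries. These shares therefore do not cover genes with few tags after PBS, such as Ccr2, Plac8, Cd5l and Marco. The interaction was not simulated.

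The members and the 12 further gene lists (170 entries) were chosen with earlier results of these data known. Named are all members, Lyz1, Ly6c1, Cybb, in each list the 4 genes with the smallest p for LPS in wild type and those called between genotypes, and for each member the 3 most correlated genes. Other genes named from the lists, such as Ccl2, Ccl12, Selp, Lyve1, Clec10a, Ednrb, Clec4f, Timd4, Vsig4, Gda and Ly6g, were picked with their values in view. Among the 12 lists, the dendritic cell and lymphocyte lists kept 2 tested genes each. Alternatives were DESeq2 1.42.0, limma-voom (limma 3.58.1), RLE factors, other filters, other sets of libraries and the replicate number as a block.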

Additional observations from a re-analysis of the deposited data

Results flagged for a closer look

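In each group of 6 libraries, a gene's highest and lowest values were compared with the rest of the group, and 5 of 43 combinations of gene and group had a library that stood far from the others. Chance gives about 1 in 20 for measured values on a continuous scale, but a single count in a group otherwise at 0 always stands apart in this way. The values of Cd5l and Marco at 0.343 CPM in knockout PBS replicate 6, and of Lyz1 at 0.225 CPM in knockout PBS replicate 4, were such single counts. Cd163 stood at 2.65 CPM in knockout PBS replicate 2, on 11 counts against 3 to 5 in the other libraries of the group. Ly6c2 stood at 3.36 CPM in wild type LPS replicate 6, on 13 counts against 1 to 5.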

How the results depend on the processing

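The number of members called after LPS was 8 in each genotype in all 24 fits that left out 1 library. With only the groups compared in the fit, 5 were called in knockout, because Ccr2, Plac8 and Cd5l no longer passed the filter, and 6 in wild type, without Ccr2 and Plac8. With a filter at a mean of 2 CPM, Cd5l was not tested, which left 7 members called after LPS in each genotype and 2 between genotypes after LPS. With only the groups compared in the fit, 33 genes were called between genotypes after PBS, against 19. Without a filter, 88 genes were called after PBS, 293 after LPS (against 151) and 67 for the interaction (against 1). The replicate number as a block gave 39, 273 and 8. The labels do not say whether the numbers pair the animals, and the values do not settle it. Of 36 same-numbered pairs, 2 had a correlation of deviations over 0.1. With 6 numbers to match, 11 of 24 libraries correlated best with their own number, and what the numbers share was not tested. The block changed no call of a member. Without both wild type LPS replicates 1 and 2 the counts were 36, 561 and 249. The interaction gave 3 genes with DESeq2 and 4 without Gm42418 and mitochondrial rRNA. With 1 library left out, the counts ranged from 13 to 32 after PBS, 72 to 289 after LPS and 1 to 20 for the interaction.

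Of the members, Lyz2 in knockout against wild type after LPS lost its call with DESeq2 (-0.67, adjusted p = 0.0582), and Marco without wild type LPS replicate 3, with a range of -1.50 to -0.92 over the fits with 1 library left out. Uncalled values changed sign: F13a1 between genotypes after PBS reached 0.081 with limma-voom and ranged from -0.27 to 0.052 with 1 library left out, Cd163 there from -0.58 to 0.10, and the Marco interaction from -0.48 to 1.15. The cause of these changes was not tested. Cd5l between genotypes after PBS ranged from 0 to 1.42. It reached 0 without knockout PBS replicate 6, which held the only Cd5l count of the PBS libraries. Depth limits Ly6c2, Plac8, Marco and Cd5l after PBS, since 1 tag there is 0.192 to 0.433 CPM.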

Other observations

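Of the markers of non-classical monocytes, Treml4 and Spn were under the filter, while Nr4a1 and Ace were tested. Nr4a1 stood at 0.32 ± 0.14 in wild type (edgeR adjusted p = 0.0947) and -0.18 ± 0.13 in knockout (adjusted p = 0.491). Ace rose by 0.74 ± 0.17 in wild type (edgeR adjusted p = 0.00113) and stood at 0.46 ± 0.16 in knockout (adjusted p = 0.0644). Treml4 had 37 counts after LPS against 1 after PBS in wild type (ratio 40.7, interval 6.87 to 1650 at 95%), and 22 against 3 in knockout (ratio 7.42, interval 2.23 to 38.7). Spn, the sialophorin CD43, had 80 against 9 counts in wild type and 43 against 4 in knockout. Siglec1, a macrophage lectin induced by interferon, had 4 against 0 counts in wild type and 13 against 2 in knockout. Mgl2, a lectin of border macrophages and dendritic cells, had 9 against 19 counts in wild type and 11 against 15 in knockout. Treml4, Spn, Siglec1 and Mgl2 were not tested.

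The lymphocyte and dendritic cell lists had 2 tested genes each. Xcr1, a marker of cross-presenting dendritic cells, had 0 counts in all 24 libraries, which does not show that its RNA was absent. Zbtb46 and Flt3 stood at 0.19 ± 0.11 (edgeR adjusted p = 0.246) and -0.25 ± 0.20 (adjusted p = 0.418) for LPS in wild type.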
